A study of Homo sapiens with 6 samples.

Results

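Loss of the ETV4 gene was read in Ishikawa cells kept without hormone, by setting 2 ETV4 knockout clones in DMSO against the parental line in DMSO. Those are 3 of the 6 libraries of the study, whose other 3 libraries are the same lines given 10 nM 17β-estradiol (E2). Ishikawa is a human endometrial adenocarcinoma line that carries the estrogen receptor. Every line had spent 5 days in hormone-depleted medium and then received 0.1% DMSO, the vehicle. Clone 1 and clone 2 are separate knockout lines, each from 1 clone, and how the ETV4 alleles were altered was not given in the sources used here. The parental group is the unedited line with 1 library. The sources disagree on how long DMSO was on the cells, with 8 h in the protocol and 1 h in the sample characteristics. Genes were described as moved where both clones lay at least 2-fold from the parental library in the same direction. A gene had to reach a mean of 2 CPM (counts scaled to library size) over the 3 DMSO libraries, which left 12264 of 26364 genes.

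ETV4 belongs to the PEA3 group of ETS transcription factors, together with ETV1 and ETV5. These proteins bind DNA around a GGAA core and act downstream of receptor tyrosine kinases and the ERK kinases, whose feedback inhibitors are often read as a measure of that pathway. In endometrial cancer cells ETV4 has been studied as a partner of the estrogen receptor on chromatin. The DMSO libraries describe these cells without added hormone, and activity of the receptor was not measured.

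The 3 DMSO libraries held 35532428 counts for clone 1, 28037392 for clone 2 and 33108589 for the parental line, and between 17755 and 18342 genes had a count in each. The cells kept an epithelial profile: 13 of 14 epithelial markers were measured, their summed level was between 3539 and 3750 CPM in the 3 libraries, and FOXA2 was the marker at 0. Summed levels were 57.9 to 85.0 CPM for 10 fibroblast or stromal markers, 1.88 to 4.79 CPM for 7 endothelial markers and 3.17 to 3.60 CPM for 8 leucocyte markers. PECAM1 and EMCN among the endothelial markers and CD3E among the leucocyte markers had 0 counts in all 3 libraries. The DMSO ratios moved with transcript length and GC content, as described after the gene groups.

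ETV4 itself was low in both clones. It had 122 counts in clone 1, 71 in clone 2 and 586 in the parental library, or 3.36, 2.37 and 19.4 CPM. The clones held 14.8% ± 3.62 (SD, n = 2) of the parental level, and the gene fell by 2.75 (SE 0.38) on the log2 scale (edgeR quasi-likelihood test over the 3 libraries, p adjusted by Benjamini-Hochberg, 2.69e-10). The counts are per gene and do not show from which exons the remaining reads came. ETV5 lay close to the parental level in both clones, at 51.0 and 42.4 CPM against 53.8. ETV1 was higher in clone 1 and lower in clone 2, at 9.77 and 4.63 CPM against 7.46, and neither paralog was called.

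The higher group, 2-fold or more above the parental library in both clones, numbered 242 genes, or 1.97% of those measured, and the lower group numbered 68, or 0.554%. Together they made up 310 genes (2.53%), of which 78.1% were higher. Scaling by total counts in place of TMM moved that share to 91.0%, with the median of all genes at log2 0.15 in clone 1 and 0.19 in clone 2 in place of -0.01 and -0.03. Both clones are read against the same parental library, so a deviation of that library enters both ratios. With TMM over all 6 libraries its factor was 0.899, and those of the others ran from 1.00 to 1.05. The median parental level was 3.30 CPM in the higher group, 19.7 CPM in the lower group and 35.6 CPM over all measured genes. Choice by the ratio favours a low parental level in the higher group and a high one in the lower, so nothing is read from this contrast. In the parental library 85 higher and 0 lower genes were under 2 CPM, and those 85 passed the filter only through the clones. For 14 lower genes both clones were under 2 CPM, and these passed only through the parental library. The 2 clones lay within 1.5-fold of each other for 165 of the 242 higher and 49 of the 68 lower genes. They lay at least 2-fold apart for 21 and 12. Read alone, clone 1 had 2.98% of genes 2-fold higher and 1.15% lower, and clone 2 had 6.29% and 4.20%.

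**Figure D1:**
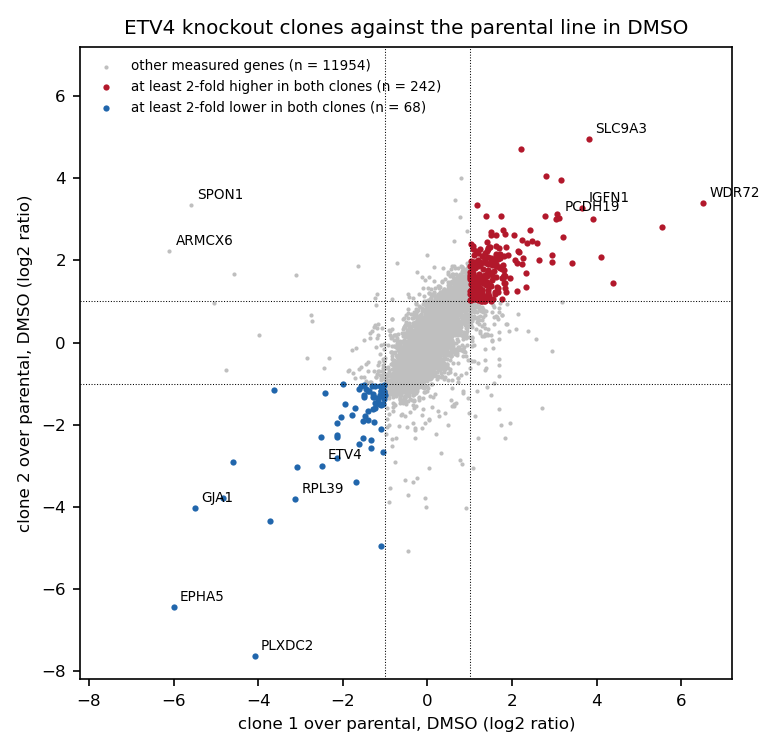
Log2 ratio to the parental DMSO library in clone 1 (horizontal) and clone 2 (vertical) for the 12264 measured genes, 1 point per gene, with dotted lines at 2-fold. The 242 higher genes (red) and the 68 lower genes (blue) fill the upper right and lower left corners; SPON1 and ARMCX6 lie at upper left, low in clone 1 and high in clone 2.

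The edge of the 2-fold rule is not a gap in the data. ZMIZ1, a transcriptional coregulator, was the last gene inside it on the higher side with log2 ratios of 1.00 and 1.04, and RUNX2, a transcription factor of bone and tumour cells, was the first outside with 1.00 and 1.72, its clone 1 ratio being below 1 before rounding. CYP2S1, a cytochrome P450, was the last lower gene inside with -1.99 and -1, and C6orf52 was the first outside with -1 and -1.02. No ratio has a replicate on the parental side.

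The test over all 15287 genes with enough counts called 421, or 2.75%, of which 296 (1.94%) rose and 125 (0.818%) fell in the clones. It called 165 of the 242 higher and 51 of the 68 lower genes, a description only, since both rest on the same libraries. The test has 1 residual degree of freedom, from the pair of clones, and it assumes that the parental library varies as they do. With the spread taken from all 6 libraries in 4 groups, 1 gene was called (EPHA5, edgeR adjusted p = 0.00173), against 195 by DESeq2, 192 by limma-voom and 69 by edgeR after the correction for GC content and length. The alternatives were read for genes named by the selection rules given under processing. Genes named only after values were seen or as called members of a list, such as VIM, MUC16 and COL12A1, are left out. Of the genes so read and described as risen or fallen, that correction did not call WDR72, MUC5AC, MUC5B, SULF1, EPHA3, EPHB6, EFNB2, DUSP6, SPRY1, PDZK1, NKD1, ID2, ID3, TGFB2, TEAD1, KRT17, KRT23, KRT80, FAS, COL3A1, SDHB and AKR1C2. DESeq2 did not call PLXDC2, WDR72, EPHA3, SPRY1, TGFB2, KRT23, COL3A1 and AKR1C2, and limma-voom did not call EFNB2, DUSP6, SPRY1, NKD1, TGFB2, KRT23 and CDKN1A. A lost call need not come with a smaller ratio: corrected log2 ratios were 6.43 and 3.27 for WDR72, 3.13 and 2.46 for SULF1 and 3.16 and 2.42 for PDZK1.

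EPHA5, a receptor tyrosine kinase bound by membrane-tethered ephrins, was the gene that stood lowest by the smaller of its 2 ratios. It had 55 counts in clone 1 and 33 in clone 2 against 3056 in the parental library, or 1.51, 1.10 and 101 CPM. The log2 ratios, which carry a prior count of 2, were -6.00 in clone 1 and -6.44 in clone 2, and the gene fell by 6.25 (SE 0.34) on the log2 scale (edgeR, adjusted p = 1.03e-72). PLXDC2, a membrane protein with a plexin-like domain, differed between the clones: 67 counts in clone 1, 3 in clone 2 and 977 in the parental library. Clone 1 lay 4.08 log2 units below the parental library. For clone 2 the counts give a level 323-fold lower, with a 95% exact binomial interval of 110 to 1567 that covers counting error only. SLC9A3, the sodium-proton exchanger of the apical membrane in gut and kidney epithelium, led the higher genes with 9.64 CPM in clone 1 and 21.3 in clone 2 against 0.627 in the parental line. It rose by 4.62 (SE 0.51) on the log2 scale (edgeR, adjusted p = 1.33e-16). WDR72, a protein needed for enamel formation, was next, with 647 counts in clone 1, 59 in clone 2 and 4 in the parental library. These counts put clone 1 at 135-fold above the parental line (95% exact binomial interval 52.6 to 498) and clone 2 at 14.9-fold (5.52 to 56.5). In CPM, clone 1 was at 17.8, clone 2 at 1.97 and the parental line at 0.132.

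The promoters of these leading genes, the first pair in each direction, are shown because ETV4 recognises a GGAA core and the genes changed most. Each line gives the 250 bases upstream of the RefSeq start on GRCh38.p14, 5′ to 3′ on the gene's strand. Capitals mark matches to the motifs searched. EPHA5 is at chr4:65670490-65670739 on the minus strand, PLXDC2 at chr10:19816182-19816431 on the plus strand, SLC9A3 at chr5:524450-524699 on the minus strand and WDR72 at chr15:53762879-53763128 on the minus strand.
EPHA5: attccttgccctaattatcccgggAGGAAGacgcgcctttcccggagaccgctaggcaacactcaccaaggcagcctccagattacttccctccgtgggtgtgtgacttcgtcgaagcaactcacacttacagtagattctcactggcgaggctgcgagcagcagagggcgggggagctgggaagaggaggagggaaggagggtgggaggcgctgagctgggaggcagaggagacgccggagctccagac
PLXDC2: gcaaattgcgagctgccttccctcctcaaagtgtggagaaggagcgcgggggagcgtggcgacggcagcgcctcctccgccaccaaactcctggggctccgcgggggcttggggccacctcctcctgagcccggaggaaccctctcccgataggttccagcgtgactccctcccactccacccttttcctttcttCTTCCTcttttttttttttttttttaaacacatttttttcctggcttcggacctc
SLC9A3: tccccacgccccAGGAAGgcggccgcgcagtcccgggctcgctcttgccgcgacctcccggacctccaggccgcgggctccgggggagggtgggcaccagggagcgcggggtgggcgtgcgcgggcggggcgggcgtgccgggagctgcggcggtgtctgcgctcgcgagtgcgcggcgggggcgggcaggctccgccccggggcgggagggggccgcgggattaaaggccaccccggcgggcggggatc
WDR72: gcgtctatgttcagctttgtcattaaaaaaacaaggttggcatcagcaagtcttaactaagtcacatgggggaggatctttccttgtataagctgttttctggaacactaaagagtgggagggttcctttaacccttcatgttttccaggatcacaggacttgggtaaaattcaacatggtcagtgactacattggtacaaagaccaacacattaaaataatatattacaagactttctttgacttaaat
The motifs searched, on both strands, were CCGGAAGT, the strong ETS form, AGGAAG, a shorter form of the same core, and the full palindromic estrogen response element. EPHA5 and SLC9A3 each hold AGGAAG on the strand shown, PLXDC2 holds it on the opposite strand, and WDR72 holds none of the motifs in this window. The GGAA core alone was not searched for, and the windows of EPHA5, PLXDC2 and WDR72 hold unmarked copies of it.

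Across promoters of 300 bases (250 before to 50 after the start), found for 9910 measured genes and 220 of the 310 moved ones, the strong form CCGGAAGT was in 9.19% of all, 3.61% of the 166 higher and 0 of the 54 lower promoters. The shorter AGGAAG was in 31.8% of all, 36.7% of the higher and 40.7% of the lower promoters. The estrogen response element was in 0.0101% of all and in 0 promoters of either group. A match is a description of letters and not a bound site. Median promoter GC content was 65.7% over all, 64.3% over the higher and 61.7% over the lower genes.

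Among genes of cell adhesion and communication, GJA1, which encodes the gap junction protein connexin 43, had 703 counts in clone 1 and 1591 in clone 2 against 26349 in the parental line. It fell by 4.58 (SE 0.35) on the log2 scale (edgeR, adjusted p = 3.12e-35), and was the only connexin called of 10 tested. Among 7 measured protocadherins outside the gene clusters, 1 was 2-fold higher and 1 lower, against 1.97% and 0.554% of all measured genes. PCDH19, an adhesion protein known from neurons, rose from 10.6 CPM in the parental line to 91.4 and 87.6 in the clones, and PCDH7 fell from 14.4 to 1.65 and 1.70 CPM. For both genes the 2 clones were nearly equal and lay far from the parental library. In the Eph and ephrin list of 20 genes, EPHA5 and EPHA3 fell and the receptor EPHB6 and the ligand EFNB2 rose by the test. EPHA3 was at 5.37 and 1.73 CPM against 11.3, and EPHB6 at 22.3 and 17.2 against 6.31. EFNB2 had log2 ratios of 1.00 and 1.39, its clone 1 ratio being just under the 2-fold rule. None of 20 measured tight and adherens junction genes was 2-fold away in both clones, and none of 21 tested was called. Their median ratios were -0.05 and 0.03.

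**Figure D2:**
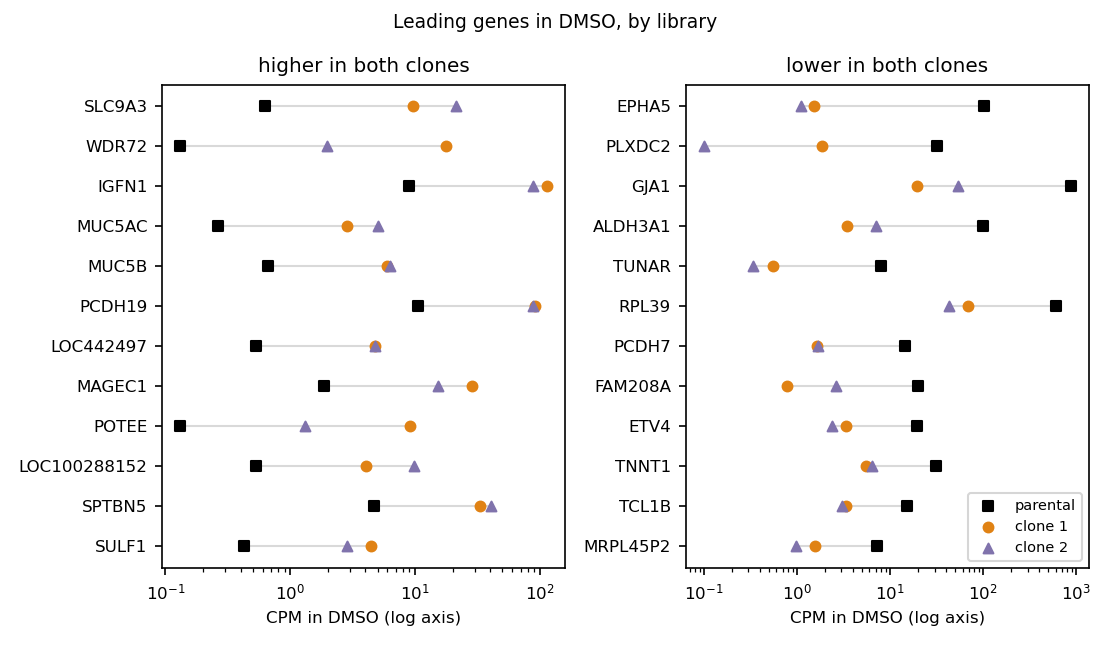
CPM on a log axis in the parental (black squares), clone 1 (orange circles) and clone 2 (purple triangles) DMSO libraries for the 12 leading genes in each direction, 1 library per point. EPHA5 falls from 101 CPM to 1.51 and 1.10; the clones nearly coincide for PCDH19 and PCDH7 and lie far apart for WDR72, PLXDC2 and POTEE.

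The remaining leading higher genes had varied functions. IGFN1, a protein of immunoglobulin and fibronectin domains described in muscle, was at 114 and 87.4 CPM against 8.95 and rose by 3.49 (SE 0.36) on the log2 scale (edgeR, adjusted p = 1.04e-18). The gel-forming mucins MUC5AC and MUC5B rose as well: MUC5AC was at 2.86 and 5.03 CPM against 0.264, and MUC5B had 218 and 187 counts against 20. SPTBN5, a beta spectrin, rose from 4.72 CPM to 32.8 and 40.6, and SULF1, an enzyme that trims sulfate from heparan sulfate, from 0.429 to 4.46 and 2.83. MAGEC1, an antigen otherwise confined to testis and tumours, rose from 1.85 CPM to 28.4 and 15.2. POTEE, an ankyrin and actin fusion protein with close copies elsewhere in the genome, had 328 counts in clone 1, 39 in clone 2 and 4 in the parental library. Among the 12 leading higher genes, the loci without a descriptive name, LOC442497 and LOC100288152, went from 0.528 CPM each to 4.79 and 4.73 CPM, and to 4.02 and 9.80 CPM.

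The remaining leading lower genes were likewise varied. ALDH3A1, an aldehyde dehydrogenase, fell from 98.9 CPM to 3.41 and 7.07, a log2 change of -4.24 (SE 0.30) (edgeR, adjusted p = 5.02e-41). TUNAR, a long noncoding RNA, fell from 8.03 CPM to 0.551 and 0.333, and TCL1B, its measured neighbour and a member of the TCL1 oncogene family, from 15.3 to 3.39 and 3.03. FAM208A, the TASOR subunit of the HUSH silencing complex, fell from 607 counts to 28 and 78. Of the HUSH partners, MPHOSPH8 was at 59.8 and 72.0 CPM against 43.1, MORC2 at 69.7 and 88.7 against 46.2, and PPHLN1 at 117 and 90.8 against 150, and none of these was called. TNNT1, a troponin T of slow skeletal muscle, fell from 31.5 CPM to 5.45 and 6.33. Apart from FAM208A, no gene of the 8 measured in the HUSH list was 2-fold away in both clones.

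Genes downstream of receptor kinases were read in a list of 17 ERK feedback and output genes. The test called 3 of 16 lower and 0 higher, against 0.818% lower and 1.94% higher of all tested genes. SPRY2, an inhibitor of receptor kinase signalling, was at 53.7 and 39.5 CPM against 111 and fell by 1.25 (SE 0.28) on the log2 scale (edgeR, adjusted p = 0.00144). Its relative SPRY1 was at 33.1 and 46.0 CPM against 74.8 (adjusted p = 0.0451), and the ERK phosphatase DUSP6 at 73.7 and 53.8 against 138 (adjusted p = 0.0100). EGR1, a transcription factor induced by ERK, went the other way without passing the test, at 101 and 105 CPM against 52.5 (edgeR, adjusted p = 0.0633). Of the 12 measured genes of the list, 5 were higher and 6 lower in both clones by any amount. The list median was -0.04 in clone 1 and -0.28 in clone 2, against -0.01 and -0.03 over all genes. Counts of members that were higher or lower in both clones by any amount are to be read against all 12264 measured genes, of which 4922 were higher and 5316 lower in both, with 1 parental library shared by both ratios. In the immediate early list, of which EGR1 is also a member, 9 of 11 measured genes were higher in both clones, none was 2-fold higher in both, and 0 of 15 tested were called. JUN was at 37.4 and 33.0 CPM against 18.9, and FOS at 5.09 and 4.70 against 3.53.

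Of 15 measured ETS factors outside the PEA3 group none was 2-fold away in both clones, although ratios in clone 1 reached 1.28, and 0 of 20 tested were called. The medians of their ratios were 0.12 and 0.14. Among steroid receptors ESR1, the estrogen receptor, was at 272 and 240 CPM against 195 (adjusted p = 0.588). PGR, the progesterone receptor and a classical estrogen target, was at 7.21 and 2.60 CPM against 1.59, with log2 ratios of 2.14 and 0.69 (edgeR, adjusted p = 0.0544). In 40 estrogen-induced genes, 23 of which were measured, 15 were higher and 4 lower in both clones (all measured genes, 4922 and 5316 of 12264). In this list 1 was 2-fold higher (1.97% of all measured) and 1 of 28 tested was called higher (1.94% of all tested). That gene was PDZK1, a scaffold of membrane transporters that is also in the exchanger list beside SLC9A3. It was at 5.48 and 2.77 CPM against 0.661 and rose by 2.64 (SE 0.59) on the log2 scale, adjusted p = 0.00117. GREB1, another estrogen target, was at 8.15 and 9.60 CPM against 5.05 and was not called.

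The lists of developmental signalling genes differed in how many members moved. Of 11 measured Wnt targets and regulators, 3 were 2-fold higher in both clones and 0 lower, against 1.97% and 0.554% of all measured genes. The list medians were 0.22 and 0.94. LBH, a transcriptional cofactor induced by Wnt, rose from 4.59 CPM to 24.8 and 31.3, a log2 change of 2.61 (SE 0.38) (edgeR, adjusted p = 6.91e-09). NKD1, which inhibits Wnt signalling as a feedback regulator, rose from 2.38 to 7.98 and 8.47 CPM. LEF1, a DNA-binding partner of beta-catenin, was at 3.28 and 3.77 CPM against 1.55 and was not called (adjusted p = 0.225). In the TGF-beta and BMP list, 2 of 12 measured genes were 2-fold lower, against 0.554% of all measured genes. ID3 was at 7.21 and 3.97 CPM against 22.4 and ID2 at 6.61 and 5.37 against 18.6, and both fell by the test. Their relative ID1, like them an inhibitor of bHLH factors, was at 153 and 169 CPM against 260 and was not called. The ligand TGFB2 rose by the test, from 13.4 CPM to 42.7 and 19.9, and had ratios of 1.67 and 0.57. Of the Notch list, 0 of 11 measured genes were 2-fold away in both clones, with medians of 0.19 and 0.57. The test, which also takes in genes under 2 CPM, called 1 of 16 higher and 0 lower. Of all tested genes it called 1.94% higher. Among 12 YAP and TEAD genes, TEAD1, the DNA-binding partner of YAP, rose from 31.1 CPM to 64.7 and 111.

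Keratins and cell cycle inhibitors also included moved genes. Of 9 measured keratins 3 were 2-fold higher in both clones (1.97% of all genes) and 4 of 12 tested rose (1.94% of all tested). KRT5, a basal epithelial keratin, was at 97.6 and 139 CPM against 46.5, KRT17 at 15.8 and 28.0 against 7.66, and KRT80 at 229 and 204 against 84.7. KRT23 rose by the test but was 2-fold higher in clone 1 only, with ratios of 1.76 and 0.67. CDKN1A, the CDK inhibitor p21, was at 87.4 and 89.5 CPM against 42.4 and rose by 1.06 (SE 0.31) on the log2 scale (edgeR, adjusted p = 0.0298). CDKN1C, the inhibitor p57, was at 35.8 and 27.7 CPM against 11.8 and rose by 1.43 (SE 0.34). In the same list the death receptor FAS fell, with log2 ratios of -1.51 and -1.03, and 14 of 17 genes were not called.

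Mesenchymal genes held a loss that the 2 CPM rule leaves out. VIM, the intermediate filament vimentin, had 0 counts in clone 1 and 1 in clone 2 against 108 in the parental library, or 3.57 CPM there, and was named after its values were seen. Clone 1 was at least 43.1-fold lower, taking 3 counts as the most that a 0 allows, and clone 2 was 107-fold lower with a 95% exact binomial interval of 18.8 to 4263. In E2 both clones had 0 counts, against 95. The test called 4 of 12 tested genes of the list lower and 0 higher: VIM (edgeR, adjusted p = 2.74e-14), SPARC, COL5A1 and TGFBI. Of all tested genes 0.818% were called lower. TGFBI, a matrix protein induced by TGF-beta, fell from 12.2 CPM to 2.70 and 2.50. CDH2, the neural cadherin, was at 649 and 691 CPM against 596 and TWIST1 at 16.4 and 14.7 against 12.5, and neither was called. Of 10 stromal markers 7 were tested and 1 was called: COL3A1 fell from 7.79 CPM to 1.40 and 3.27. The ratios of the 4 measured stromal markers reached up to 0.22 in clone 1, and the summed level of the list was 85.0 CPM in clone 2 and 75.8 in the parental line.

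The lists of ribosomal and respiratory genes had median shifts of less than 2-fold in DMSO. All 29 measured cytosolic ribosomal protein genes of the list were lower in both clones, with medians of -0.47 and -0.99, and 0 of 29 were called. That list leaves out part of the family, which was also grouped by an RPL or RPS symbol after values were seen. Of 78 measured genes 77 were lower in both clones, 4 were 2-fold lower (RPL39, RPL9, RPL41 and RPL26) and 8 of 80 tested fell. Of all measured genes 0.554% were 2-fold lower, and of all tested genes 0.818% fell. After the correction for GC content and length, RPL26 had log2 ratios of -0.55 and -0.45 and no longer met the 2-fold rule. Corrected ratios were -1.01 and -1.05 for RPL41, -1.8 and -1.32 for RPL9 and -2.88 and -3.36 for RPL39. RPL9 was at 339 and 394 CPM against 1388. RPL27 was at 1088 and 913 CPM against 1941, and RPS16 at 1067 and 698 against 1668. In E2 RPL27 was at 1070 and 1245 CPM against 1038, and RPS16 at 864 and 867 against 841. For both genes the parental library differed most between the treatments, which were scaled separately, and the cause was not tested. All 25 measured subunits of the respiratory chain were lower in both clones, with medians of -0.48 and -0.81. By the test 2 of 26 fell, against 0.818% of all tested genes. SDHB, a subunit of complex II, was at 50.1 and 68.5 CPM against 136. In E2 the medians were 0.07 and -0.13 for the ribosomal and 0.01 and 0.16 for the respiratory list. Of 17 mitosis genes 13 were lower in both clones, against 5316 of the 12264 genes measured, with medians of -0.57 and -0.57 in DMSO and -0.35 and -0.37 in E2, and 0 were called. CCNB1, a mitotic cyclin, was at 464 and 350 CPM against 802 (adjusted p = 0.0945). Of 14 NRF2 targets 12 were lower in both clones, against the same 5316 of 12264, and AKR1C2, an aldo-keto reductase, was called, at 7.10 and 3.47 CPM against 15.2.

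**Figure D3:**
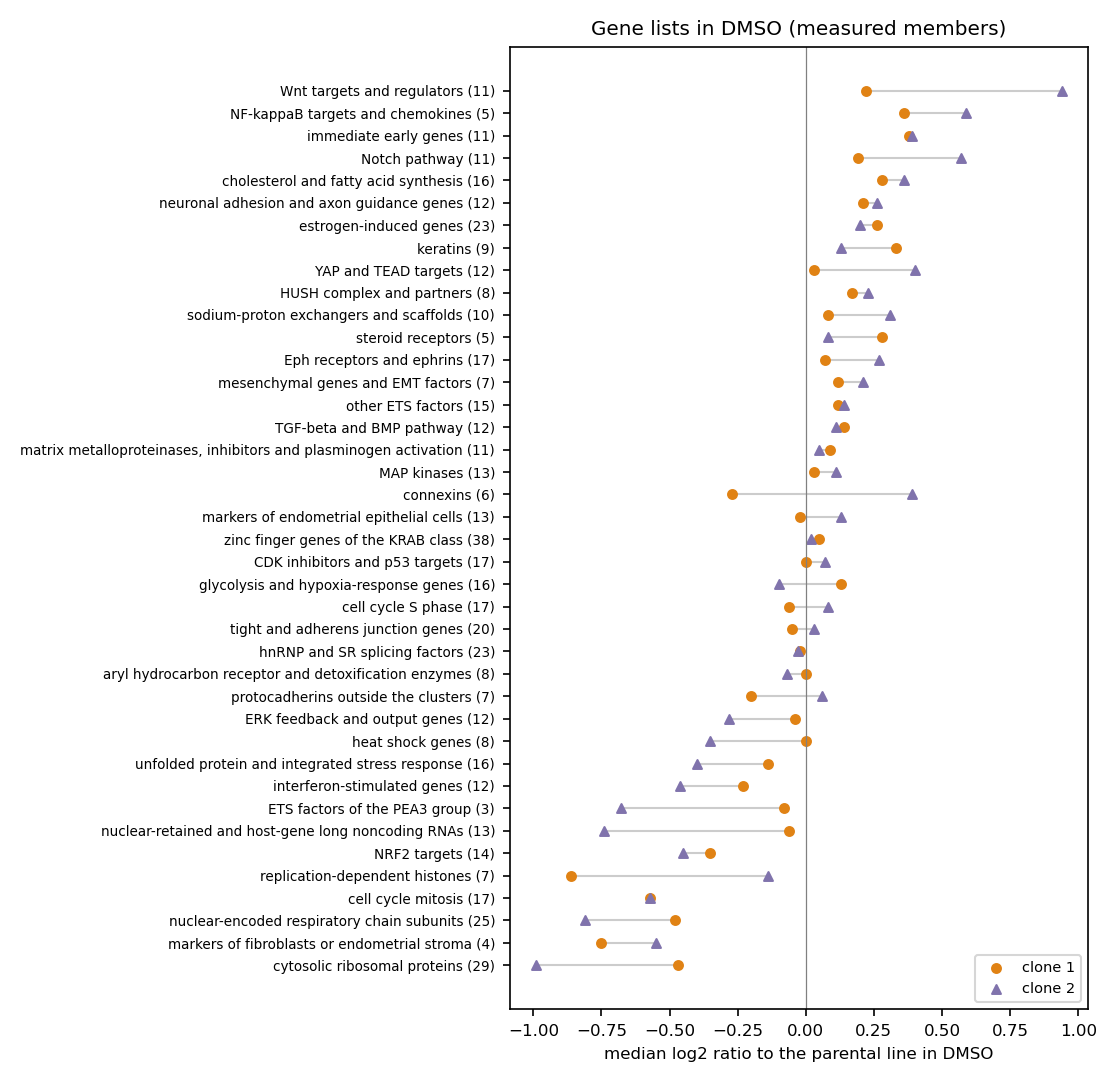
Median log2 ratio to the parental DMSO library in clone 1 (orange circles) and clone 2 (purple triangles) for each gene list with at least 3 measured members, the number in brackets. Cytosolic ribosomal proteins (-0.47 and -0.99) and respiratory chain subunits (-0.48 and -0.81) lie to the left, and Wnt targets (0.22 and 0.94) to the right.

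Short transcripts were lower and long ones higher in the clones in DMSO. In the shortest of 5 equal bins of transcript length the median ratio was -0.27 in clone 1 and -0.48 in clone 2, and in the longest it was 0.19 and 0.35. The same bins in E2 had medians of -0.02 and -0.02, and of 0.04 and 0.02. By GC content, the DMSO medians ran from -0.10 and -0.31 in the lowest bin to 0.09 and 0.29 in the highest, and in E2 from 0.11 and 0.02 to -0.14 and -0.05. The higher group had a median GC content of 55.9% and a median length of 4770 bases, and the lower group 47.9% and 2782, against 47.9% and 3755 bases over all measured genes. The share of genes in the higher group ran from 0.513% in the lowest GC bin to 4.10% in the highest. After each ratio was corrected for its trend on both properties, 167 of the 242 higher genes (69.0%) and 49 of the 68 lower genes (72.1%) still met the 2-fold rule. The median over the 2 clones changed from -0.73 to -0.41 for the ribosomal list and from -0.65 to -0.25 for the respiratory list. What part length and GC content have in the results was not tested beyond this correction.

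**Figure D4:**
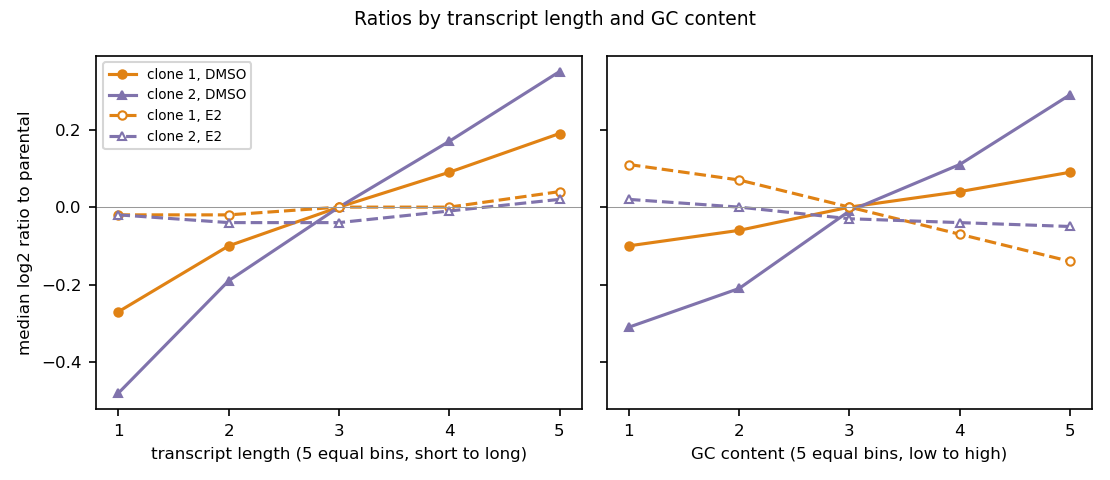
Median log2 ratio to the parental library in 5 equal bins of transcript length (left) and GC content (right), for clone 1 (orange) and clone 2 (purple) in DMSO (filled, solid) and E2 (open, dashed). The DMSO lines climb with length, from -0.27 and -0.48 to 0.19 and 0.35, while the E2 lines stay between -0.04 and 0.04.

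The groups chosen in DMSO were then read in the E2 libraries, which the choice did not use and which come from the same 3 lines. Of the 242 higher genes, 51 (21.1%) were also at least 2-fold higher in both clones in E2. Of the genes with a mean of 2 CPM in E2, 0.661% were 2-fold higher, and 48 of the 242 were among these. In all, 175 (72.3%) were higher in both clones by any amount and 11 were lower in both. Of the 68 lower genes, 28 (41.2%) were at least 2-fold lower in E2 as well, and 58 (85.3%) were lower by any amount. Of the genes with a mean of 2 CPM in E2, 0.524% were 2-fold lower, and 27 of the 68 were among these. The median ratios of the higher group were 1.31 and 1.63 in DMSO and 0.61 and 0.61 in E2. Those of the lower group were -1.40 and -1.49 in DMSO and -1.06 and -1.33 in E2. Genes were chosen for their ratios in DMSO, so the medians of both treatments are given side by side without a test.

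Whether a knockout effect differed between DMSO and E2 was tested by an interaction over all 6 libraries. Without a block for the line, edgeR's quasi-likelihood test called 0 of 15611 genes, 1190 (7.62%) had an unadjusted p under 0.05, and DESeq2 called 27 of the 2106 genes it adjusted. With the line as a replicate block, which pairs the DMSO and E2 libraries of each line, 2470 (15.8%) were called, among them 138 of the 242 higher and 16 of the 68 lower genes. Those groups were chosen by their DMSO ratios, which the interaction also uses, so nothing is read from their share. The blocked fit has 1 residual degree of freedom.

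The largest lower ratios were alike under both treatments. EPHA5 had log2 ratios of -6.00 and -6.44 in DMSO and -6.13 and -6.36 in E2, and GJA1 -5.49 and -4.03 against -5.23 and -3.82. ALDH3A1, TUNAR, PCDH7 and FAM208A were likewise 2-fold lower in both. RPL39 and RPL41, ribosomal protein genes with many processed copies, went the other way. RPL39 was at 68.7 and 42.6 CPM against 599 in DMSO and at 115 and 345 against 69.2 in E2, so the parental library was the highest in DMSO and the lowest in E2. RPL41 had ratios of -1.53 and -1.92 in DMSO and 0.70 and 0.21 in E2. On the higher side IGFN1 was at 176 and 112 CPM against 81.5 in E2, so its E2 ratios were 1.11 and 0.46. Its DMSO ratios were 3.66 and 3.28. LTB4R, a receptor for leukotriene B4, had ratios of 2.04 and 2.63 in DMSO and -0.17 and 0.27 in E2. RPL39, RPL41, IGFN1 and LTB4R were named for their gaps between the treatments, so these values are a description with no test.

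**Figure D5:**
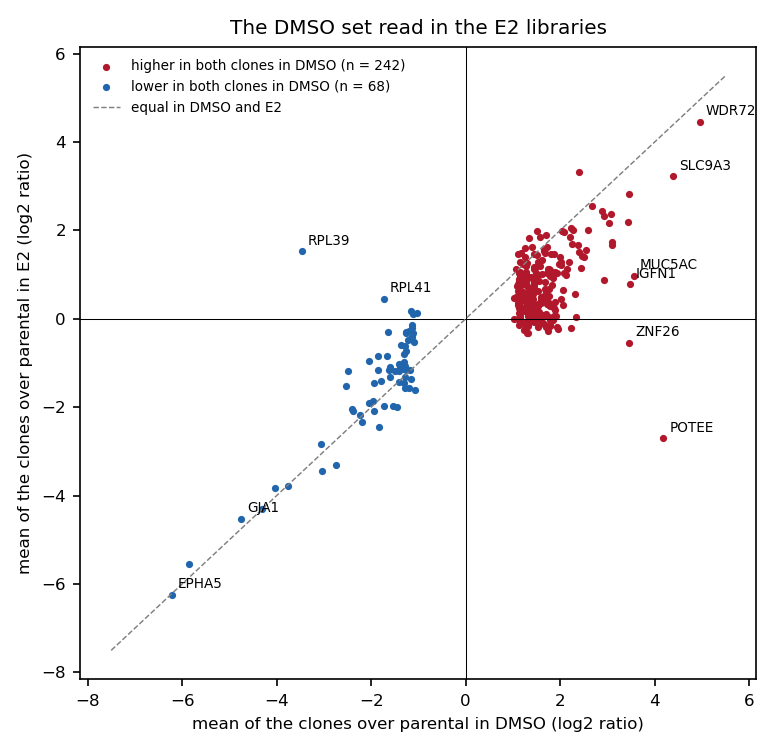
Mean log2 ratio of the clones to the parental library in DMSO (horizontal) and in E2 (vertical) for the 242 higher (red) and 68 lower (blue) genes, with a dashed line where both are equal. EPHA5 and GJA1 lie on the line, most red points lie under it, and RPL39, RPL41 and POTEE lie on the opposite side of zero in E2.

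Families were also counted by gene symbol, a grouping made after values had been seen. Of 9 measured protocadherin beta genes, 5 were 2-fold higher in both clones, and of 11 protocadherin gamma genes 3 were, against 1.97% of all genes. Of 458 genes with a ZNF symbol 14 were 2-fold higher and 0 lower. Of 215 with an SLC symbol 6 were higher, 1 of them the antisense RNA SLC25A25-AS1, and 1 was lower. In both directions together these shares were 3.06% and 3.26%, near the 2.53% of all measured genes. PCDHB8 was at 11.4 and 10.2 CPM against 1.85 and PCDHGB4 at 33.5 and 36.8 against 14.7. Members of these clusters share sequence, so reads may have been split among them. MUC16 rose from 8.06 to 24.7 and 50.2 CPM, which made 3 of 5 measured mucins 2-fold higher. Of 19 measured collagen genes 4 were 2-fold higher and 2 lower (0.554% of all genes). COL12A1 rose from 34.3 to 173 and 88.4 CPM and COL26A1 fell from 98.3 to 38.7 and 16.4. After the GC and length correction COL12A1 had log2 ratios of 2.06 and 0.86 and no longer met the 2-fold rule. Corrected ratios were -1.41 and -2.8 for COL26A1 and 1.16 and 1.69 for MUC16. Long noncoding RNAs made up 8.02% of the higher genes with a RefSeq type and 2.39% of all measured ones.

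Some moved genes were neighbours among the measured genes of the RefSeq order. There were 17 runs of at least 2 adjacent members of one direction, holding 36 genes, and 16 of the runs were higher. No number of runs was computed for comparison, so the count is a description only. The longest were KCNQ1, KCNQ1OT1 and CDKN1C, and PCDHB8, PCDHB16 and PCDHB11. After the GC and length correction KCNQ1OT1 had log2 ratios of 0.76 and 1.02 and no longer met the 2-fold rule. Corrected ratios were 1.06 and 1.3 for KCNQ1 and 1.69 and 1.29 for CDKN1C. KCNQ1OT1, the antisense noncoding RNA of the imprinted domain that holds CDKN1C, was at 7.43 and 12.5 CPM against 3.14, and KCNQ1, which overlaps it, had log2 ratios of 1.14 and 1.56. Use of strand in the counting was not stated, so reads of these overlapping genes cannot be told apart. MUC5AC and MUC5B formed another run, and TCL1B and TUNAR the lower one.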

How the data were processed

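Poly(A)-selected libraries were made with a stranded kit, per the labels' protocols. The authors' raw table gives counts per gene in whole numbers. The submitters' processing notes name HISAT2, SAMtools, Subread, DESeq2 and hg19, without versions or roles; the annotation, and whether counting used strand, were not given in the sources used here. The authors' other deposited table is a normalized signal, the count divided by 1 size factor per library (0.926 to 1.19), per the files' values, and entered only an alternative for ETV4. Column names write DMOS and ER, read as DMSO and E2, and A1 and A2, read as clones 1 and 2. All columns were mapped.

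Log2 ratios used TMM scaling over the 3 DMSO libraries and a prior count of 2. Levels are CPM after TMM. Tests were run in R 4.3.3 with edgeR 4.0.16 (filterByExpr, glmQLFit, glmQLFTest, Benjamini-Hochberg, adjusted p of 0.05) and checked on simulated data. Standard errors are the log2 change over the square root of F. The 3-library fit had 1 residual degree of freedom and an infinite prior, so one spread, shared across genes, underlies its p-values, which measure only the spread between the clones. DESeq2 1.42.0 and limma 3.58.1 were alternatives. The clone numbers join the libraries of 1 cell line, so they pair DMSO with E2; the difference between the clones correlated between treatments across 12264 genes with a Pearson r of 0.75. GC content and length came from the longest GENCODE 29 transcript by symbol, found for 11699 of the measured genes (95.4%), and were removed as lowess trends in the correction. Promoters came from RefSeq by symbol. Intervals at low counts are exact binomial and cover counting error only.

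Genes named were the 12 leading ones per direction by the smaller ratio, up to 4 measured members per gene list, ETV4, ETV1, ETV5, ESR1, PGR and GREB1, those beside the threshold, those opposite between clones, the largest test changes and the largest gaps between treatments. Others are named as chosen after their values were seen, or as members called in a list. Members and lists were chosen with earlier results of these data known. Genes with near copies (POTEE, RPL9, RPL26, RPL39, RPL41, mucins, clustered protocadherins) are uncertain, as are overlapping and antisense genes.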

Additional observations from a re-analysis of the deposited data

Results flagged for a closer look

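POTEE had a mean log2 ratio to the parental library of 4.18 in DMSO and -2.70 in E2, with both clones above the parental line in the first and both below it in the second. Its counts were 328, 39 and 4 in clone 1, clone 2 and the parental line in DMSO. POTEE was picked for this gap, so no test is given.

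Genes that lay at least 2-fold from the parental line in opposite directions in the clones numbered 18 (0.147% of those measured), and the 5 with the largest smaller ratio are given. SPON1, a secreted matrix protein, had log2 ratios of -5.60 in clone 1 and 3.34 in clone 2, at 1.46 and 749 CPM against 73.8. ARMCX6 had -6.10 and 2.22, at 0.110 and 55.0 CPM against 11.7. MARK1, a kinase that acts on microtubule-associated proteins, had 1.95 and -1.97, at 4.90 and 0.267 CPM against 1.22. MSC-AS1, an antisense RNA, had 1.82 and -2.32, and ZNF619 had 1.73 and -2.01. With 1 library per clone and treatment, these differences between the clones were not tested. In E2 each of the 5 genes was again on opposite sides of the parental line in the 2 clones: SPON1 had -5.37 and 3.05, ARMCX6 -6.17 and 2.95, MARK1 2.55 and -2.12, MSC-AS1 1.99 and -1.78, and ZNF619 1.74 and -3.36.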

How the results depend on the processing

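The 242 higher and 68 lower genes became 395 and 39 with total-count scaling, 687 and 193 with a total of at least 10 counts in place of 2 CPM, 107 and 34 at a mean of at least 10 CPM, 812 and 588 at 1.5-fold and 58 and 19 at 3-fold. Read in 1 clone alone, the counts ran from 365 to 772 higher and from 141 to 515 lower, the larger ones without clone 1. The 421 calls in DMSO became 1 with all 6 libraries in 4 groups, 195 by DESeq2, 192 by limma-voom and 69 after the GC and length correction; they were 417, 393 and 374 under median-ratio scaling, without a filter and at 10 counts in every library. Of 64 named genes called, 39 lost the call after the GC and length correction. In limma-voom 2 calls reversed, ARMCX6 to -2.38 and SPON1 to -1.20, both opposite between the clones. The interaction called 2470 genes with the replicate block and 27 by DESeq2. The higher genes that were 2-fold in E2 numbered 101 at 1.5-fold and ran from 63 to 82 with a clone left out, and the lower ones numbered 45 at 1.5-fold. The causes were not tested. The replicate block as a random effect in limma could not be fitted, and the 3-library test without a clone has no residual degrees of freedom. Low parental counts limit ratios of the higher group.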
